A study of Mus musculus with 11 samples.

Results

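The mesendoderm regulators described here are 10 genes, chosen by symbol from the 23284 genes listed in each library: T (Brachyury), Eomes, Mixl1, Gsc, Mesp1, Foxa2, Sox17, Gata4, Gata6 and Cer1. They were followed in 11 RNA-seq libraries of mouse embryonic stem cells (ESCs) in 5 groups. Wild-type (WT) cells and triple knockout (TKO) cells, which lack Tet1, Tet2 and Tet3, were each sampled untreated (0 h) and 4 h into treatment with α-amanitin at 10 µg/ml. This toxin blocks RNA polymerase II. Each of these 4 groups held 2 libraries of ribodepleted total RNA, and the remaining group held 3 polyA RNA libraries of untreated WT cells. All cells were kept on gelatin in serum and leukemia inhibitory factor, so no group was given a differentiation signal. The study calls its α-amanitin experiments biological replicates. What separates the replicates, and whether the TKO line is 1 clone, is not given in the sources used here, so p-values measure only the spread between these libraries.

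In the embryo, Nodal and Wnt signals induce the primitive streak, where T, Eomes, Mixl1 and Gsc are switched on in cells that will form mesoderm and definitive endoderm. Mesp1 marks nascent mesoderm, including that of the heart, whereas Foxa2 and Sox17 drive definitive endoderm. Gata4, Gata6 and Sox17 also specify the extraembryonic primitive endoderm, the alternative fate to the pluripotent epiblast in the blastocyst, and Eomes is also a factor of the trophectoderm. Cer1 is a secreted antagonist of Nodal, Wnt and Bmp proteins made by anterior visceral and definitive endoderm. Tet enzymes oxidise 5-methylcytosine, which in DNA is found mainly at CG pairs. In serum culture, ESCs are known to contain few cells that express such genes.

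The sequence upstream of 3 of the streak genes is shown because their levels differed between genotypes or RNA fractions. CG pairs are marked because Tet enzymes act there in DNA, and any part of these pairs in the levels was not tested. RefSeq promoter windows (build GRCm38.p6) were matched for 6 of the 10 members, and the 250 bases before the annotated start are given 5′ to 3′ on the gene's strand, with CG pairs in capitals. The windows are chr17:8434173-8434422 (plus strand) for T, chr9:118477939-118478188 (plus strand) for Eomes and chr12:104473237-104473486 (minus strand) for Gsc.
T: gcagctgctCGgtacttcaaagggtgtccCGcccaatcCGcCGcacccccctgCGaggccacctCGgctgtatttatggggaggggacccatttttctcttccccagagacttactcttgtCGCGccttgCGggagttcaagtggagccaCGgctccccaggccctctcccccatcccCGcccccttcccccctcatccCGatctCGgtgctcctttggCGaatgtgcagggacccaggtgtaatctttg
Eomes: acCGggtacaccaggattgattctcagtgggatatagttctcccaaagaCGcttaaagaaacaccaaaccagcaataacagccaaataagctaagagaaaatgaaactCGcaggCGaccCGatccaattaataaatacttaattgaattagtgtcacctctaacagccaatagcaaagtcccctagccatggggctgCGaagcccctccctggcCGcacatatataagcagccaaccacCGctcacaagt
Gsc: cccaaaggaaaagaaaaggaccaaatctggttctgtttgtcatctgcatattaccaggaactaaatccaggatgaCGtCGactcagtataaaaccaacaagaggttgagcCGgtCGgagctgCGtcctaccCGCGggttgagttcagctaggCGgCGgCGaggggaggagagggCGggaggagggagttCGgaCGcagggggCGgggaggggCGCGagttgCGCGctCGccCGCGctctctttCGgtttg
The T window held 14 CG pairs, the Eomes window 8 and the Gsc window 22, against a median of 6 over 32851 mouse promoter windows of the same length. For Gsc, 85.2% of all windows held fewer CG pairs, for T 70.6% and for Eomes 57.0%. The Mesp1 window held 2 CG pairs and the Cer1 window 5, while the 3 annotated starts of Foxa2 had 6, 20 and 13. The letters TATAAA, searched on both strands, were present for Gsc and for 1 Foxa2 start, and in 12.4% of all windows. The letters AGATAA, bound by GATA factors, were present for the same Foxa2 start and in 10.0% of all windows. TCACACC, a T-box sequence, TGTTTAC, a forkhead sequence, and AATCCACA, a Foxh1 sequence, were found in none of the 8 member windows and in 3.33%, 3.17% and 0.718% of all windows. These windows were not measured in the present libraries.

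The members are protein-coding genes on 9 chromosomes. In the mm9 annotation (NCBIM37, the build of the deposited values), T lies at chr17:8627288-8635361 and Eomes at chr9:118387330-118395250, both on the plus strand. On the minus strand lie Mixl1 at chr1:182623174-182627165, Gsc at chr12:105709419-105711537, Mesp1 at chr7:86937127-86938674 and Foxa2 at chr2:147868613-147872705. Sox17 at chr1:4481009-4486494, Gata4 at chr14:63817759-63890529 and Cer1 at chr4:82527655-82531052 are on the minus strand too. None of these 9 overlaps another annotated gene, and Gata6, on the plus strand of chromosome 18, does.

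Every member was low in the ribodepleted libraries, with a mean between 0.0215 scaled TPM for Cer1 and 2.40 scaled TPM for Eomes, where scaling divided each library by a size factor. TPM is a length-corrected share of a library, so levels of different genes can be compared. The deposited values fall on steps that correspond to whole reads, and the recovered totals were 25511992 to 29786112 reads per ribodepleted library and 72653715 to 82144990 per polyA library. Over the 8 ribodepleted libraries Eomes had 1011 reads, Gata4 527, T 337, Mixl1 194, Gata6 144, Sox17 117, Foxa2 87, Gsc 45, Mesp1 12 and Cer1 4. For comparison, the pluripotency factor Pou5f1 averaged 1167 TPM in WT cells at 0 h. In bulk RNA, a small number of cells with much of a transcript and many cells with little of it cannot be told apart.

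Tet1 and Tet2 reads followed the labels. Tet1 averaged 135 ± 17.7 TPM in WT and 32.5 ± 0.365 TPM in TKO cells at 0 h, and Tet2 52.5 ± 6.74 and 8.06 ± 0.379 TPM (SD, n = 2 each). Tet3 averaged 1.47 ± 0.00799 TPM without and 1.57 ± 0.102 TPM with the knockout (SD, n = 2 each), so its gene-level reads do not check the deletion. The 6 ESC markers summed to 1491 to 2891 TPM in every library. The 9 fibroblast markers summed to at most 17.4 TPM.

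**Figure D1:**
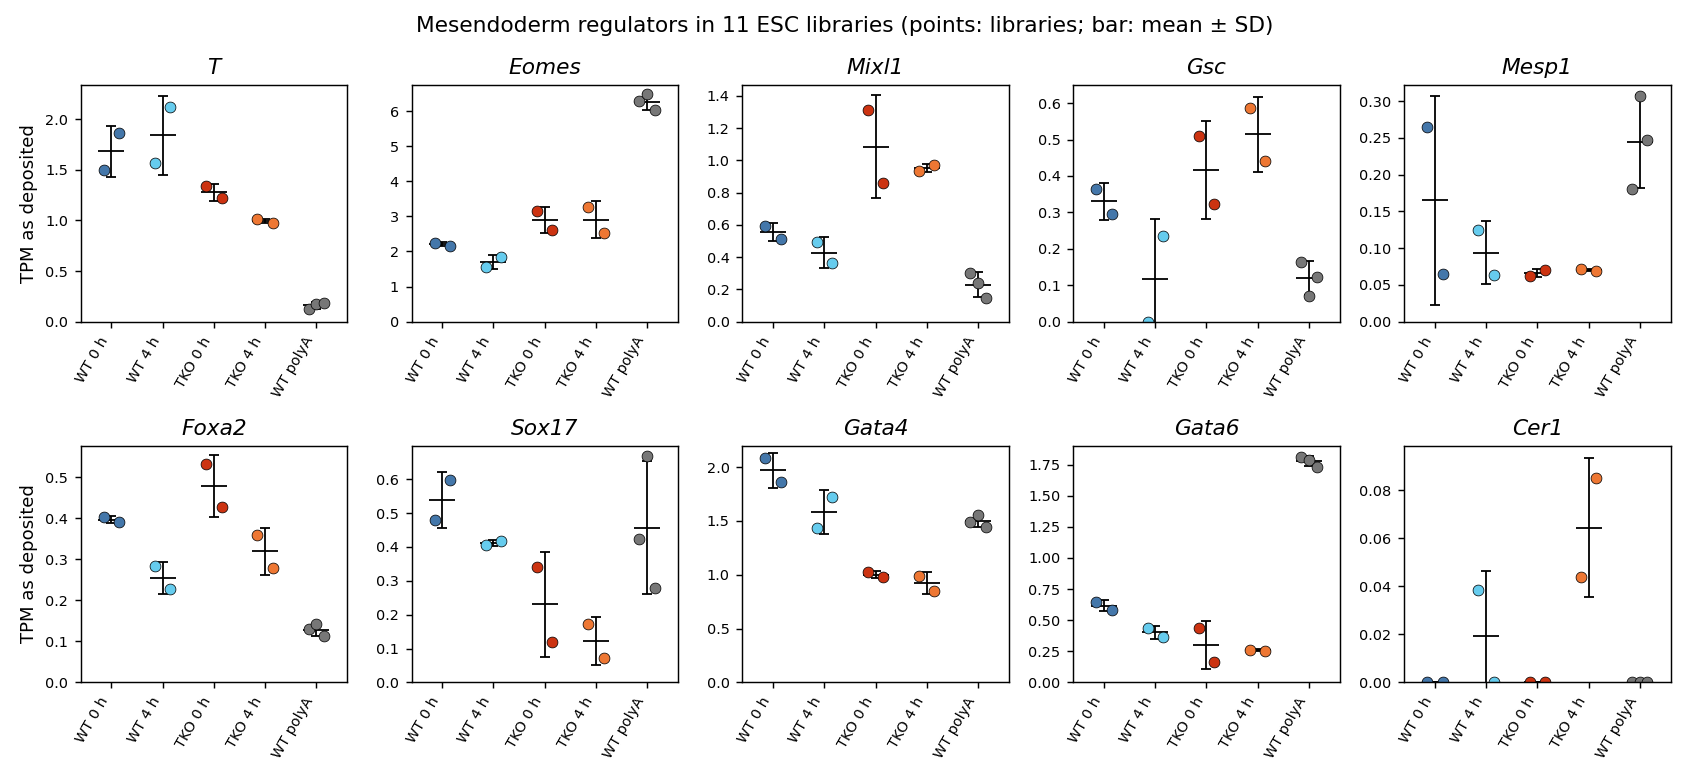
Deposited TPM (linear axes starting at 0, a separate scale for each gene) of the 10 members in WT and TKO ESCs, untreated or given α-amanitin for 4 h, and in WT polyA libraries. Points are libraries and bars are means ± SD. Gata4 was between 1.44 and 2.09 TPM in the 4 WT ribodepleted libraries and between 0.851 and 1.02 TPM in the 4 TKO libraries.

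Differences between genotypes were tested with limma on log2(scaled TPM + 1), in which the TPM values were scaled by median-of-ratios size factors, with calls made at a Benjamini-Hochberg adjusted p under 0.05 together with more than a 1.5-fold change. Only T, Eomes and Gata4 had a mean above 1 scaled TPM over the 8 ribodepleted libraries and entered that fit. For the others, limma voom was run on the recovered reads with a minimum of 10 reads over the 8 libraries, which 9 of the 10 members passed. Cer1 did not. The +1 on the TPM scale shrinks changes of genes near 1 TPM, so a member's voom change is larger than its change on the log2(scaled TPM + 1) scale.

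Gata4, Gata6 and Sox17 were lower in TKO than in WT cells at 0 h, and Mixl1 was higher. Gata4 was the only member called on the log2(scaled TPM + 1) scale, 1 lower of the 3 tested, where 15.9% of all 12467 tested genes were called. By voom on reads, 4 of 9 members were called, Mixl1 higher and Sox17, Gata4 and Gata6 lower, where 22.0% of all 16774 tested genes were called. The median change of the 9 members was -0.48 on the voom log2 scale, beside 0.03 over all genes tested.

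The GATA zinc-finger factor Gata4 was at 2.09 and 1.86 TPM in the 2 WT libraries at 0 h and at 1.02 and 0.980 TPM in the 2 TKO libraries. The groups did not overlap. The TKO minus WT difference was -0.61 ± 0.10 (SE) on the log2(scaled TPM + 1) scale (limma, adjusted p = 0.00112), and by voom -1.06 (95% interval -1.46 to -0.67, adjusted p = 7.04e-05). The voom call held with each of the 4 libraries left out (-1.13 to -1.01), whereas the change on the log2(scaled TPM + 1) scale fell just short of 1.5-fold without WT replicate 1 (-0.58, adjusted p = 0.0106).

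Gata6, its close relative, was at 0.649 and 0.585 TPM in WT cells at 0 h (29 and 27 reads) and at 0.438 and 0.166 TPM in TKO cells (21 and 7 reads). The TKO libraries differed from each other more than the WT libraries did. Its voom change was -1.22 (95% interval -2.02 to -0.41, adjusted p = 0.0120), and without TKO replicate 2 it was -0.58 (adjusted p = 0.251). Gata6 lies on chromosome 18 (NCBIM37, 11052508 to 11085633, plus strand), where it overlaps the gene 1010001N08Rik on the opposite strand. The strand setting of the counting is not given in the sources used here, so reads of that gene may be included.

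The endoderm factor Sox17 was at 0.480 and 0.597 TPM in WT cells at 0 h (21 and 27 reads). In TKO cells it was at 0.341 and 0.121 TPM (16 and 5 reads). All TKO values were below the WT values, with a voom change of -1.40 (95% interval -2.32 to -0.48, adjusted p = 0.0110). This call was lost without TKO replicate 2 (-0.73, adjusted p = 0.209) and without WT replicate 2 (-1.23, adjusted p = 0.0656).

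Mixl1, a homeobox gene of the streak, moved in the other direction. It was at 0.593 and 0.514 TPM in WT cells at 0 h (19 and 17 reads) and at 1.31 and 0.859 TPM in TKO cells (45 and 26 reads). Its voom change was 0.84 (95% interval 0.17 to 1.51, adjusted p = 0.0337). The call was lost without TKO replicate 1 (0.52, adjusted p = 0.313), WT replicate 1 (0.91, adjusted p = 0.0971) or WT replicate 2 (0.76, adjusted p = 0.146).

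The T-box genes T and Eomes differed less at 0 h. T, the defining factor of the streak and notochord, was at 1.502 and 1.86 TPM in WT and 1.34 and 1.22 TPM in TKO cells. Eomes was at 2.25 and 2.16 TPM in WT and 3.16 and 2.63 TPM in TKO cells. Neither pair of groups overlapped, but T (-0.29 ± 0.13, adjusted p = 0.0849) and Eomes (0.20 ± 0.11, adjusted p = 0.158) did not pass limma's test on the log2(scaled TPM + 1) scale (SE after ±). By voom the adjusted p was 0.109 for T and 0.107 for Eomes.

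The homeobox gene Gsc and the forkhead gene Foxa2 gave intervals that included 0 at 0 h. Gsc was at 0.365 and 0.295 TPM in WT and at 0.511 and 0.322 TPM in TKO cells, with a voom change of 0.20 (95% interval -1.07 to 1.47). Foxa2 was at 0.403 and 0.391 TPM in WT and at 0.533 and 0.426 TPM in TKO cells, with a voom change of 0.17 (95% interval -0.66 to 0.99). Mesp1 had 4 and 1 reads in WT and 1 and 1 in TKO cells, and the ratio of TKO to WT, corrected for depth, was 0.403 (95% exact interval from the split of the reads 0.0384 to 2.46). Cer1 had no read in any 0 h library, where 3 reads would have been 0.115 to 0.130 TPM.

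After 4 h of α-amanitin, the same comparison gave T, Sox17 and Gata4 lower and Eomes, Mixl1 and Gsc higher in TKO cells by voom, 6 of 9 members where 22.7% of all tested genes were called. On the log2(scaled TPM + 1) scale, T was called lower, 1 of the 3 tested members, where 16.8% of all tested genes were called. Gata4 (-0.52 ± 0.10, SE, adjusted p = 0.00246) and Eomes (0.42 ± 0.11, SE, adjusted p = 0.0119) passed the p limit there but stayed under 1.5-fold. The median voom change of the 9 members was -0.37, beside 0.05 over all genes tested.

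T was at 1.57 and 2.12 TPM in WT cells at 4 h (48 and 63 reads) and at 1.01 and 0.978 TPM in TKO cells (27 reads each). The groups were well apart, with a difference of -0.61 ± 0.13 (SE) on the log2(scaled TPM + 1) scale (limma, adjusted p = 0.00319) and of -1.02 by voom (95% interval -1.56 to -0.48, adjusted p = 0.00230). Without WT replicate 2 the first of these was -0.48 (adjusted p = 0.0278), below 1.5-fold, whereas the voom call held with each library left out.

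Eomes was at 1.57 and 1.85 TPM in WT cells at 4 h and at 3.28 and 2.53 TPM in TKO cells, without overlap. Its voom change of 0.60 (95% interval 0.27 to 0.93, adjusted p = 0.00307) was only just above 1.5-fold. The call was lost without TKO replicate 1 or WT replicate 1, and over the 4 libraries left out in turn the change ranged from 0.46 to 0.75. T and Eomes, T-box genes of the same territory, lay on opposite sides of WT in the TKO cells.

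Mixl1 was at 0.496 and 0.361 TPM in WT and at 0.936 and 0.971 TPM in TKO cells at 4 h, with a voom change of 0.99 (95% interval 0.25 to 1.73, adjusted p = 0.0234). That call was lost without TKO replicate 2 (0.93, adjusted p = 0.0746) or WT replicate 2 (0.74, adjusted p = 0.175). Gsc had 0 and 4 reads in WT and 9 and 7 in TKO cells, which correspond to 0 and 0.235 TPM and to 0.587 and 0.442 TPM. Its voom change of 2.49 (95% interval 0.79 to 4.19, adjusted p = 0.0140), a fitted value that depends on the small offset given to 0 reads, rested on the WT library without a read, since without WT replicate 1 it was 0.90 (adjusted p = 0.335).

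Among the endoderm factors at 4 h, Sox17 was at 0.406 and 0.418 TPM in WT (19 reads each) and at 0.171 and 0.0710 TPM in TKO cells (7 and 3 reads). It was lower in both TKO libraries, with a voom change of -1.93 (95% interval -3.06 to -0.80, adjusted p = 0.00484), a call lost without TKO replicate 2 (-1.40, adjusted p = 0.0723). Gata4 was at 1.44 and 1.72 TPM in WT and at 0.993 and 0.851 TPM in TKO cells, a voom change of -0.92 (95% interval -1.35 to -0.49, adjusted p = 0.000673). Gata6 was at 0.439 and 0.366 TPM in WT and at 0.264 and 0.255 TPM in TKO cells, and its voom change of -0.76 (95% interval -1.64 to 0.13, adjusted p = 0.143) was not called. Foxa2 was at 0.283 and 0.227 TPM in WT and at 0.360 and 0.279 TPM in TKO cells, with a voom change of 0.16 (95% interval -0.83 to 1.15). Mesp1 had 2 reads over the TKO and 3 over the WT libraries, a ratio of 0.740 (95% exact interval 0.0618 to 6.46). Cer1 had 3 reads over the TKO and 1 over the WT libraries, a ratio of 3.33 (95% exact interval 0.268 to 175).

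The summed level of the 5 endoderm members (Foxa2, Sox17, Gata4, Gata6 and Cer1) was 3.43 to 3.62 TPM in WT and 1.69 to 2.33 TPM in TKO libraries at 0 h, and 2.60 to 2.73 TPM and 1.54 to 1.83 TPM at 4 h. The summed level of the 5 streak and mesoderm members was 4.90 to 4.98 TPM in WT and 5.09 to 6.38 TPM in TKO libraries at 0 h, and 3.75 to 4.63 TPM and 4.99 to 5.88 TPM at 4 h. Eomes held the largest part of the latter sum. Gata4 held the largest part of the endoderm sum, in which mean Foxa2 was not lower in TKO than in WT cells at either time.

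**Figure D2:**
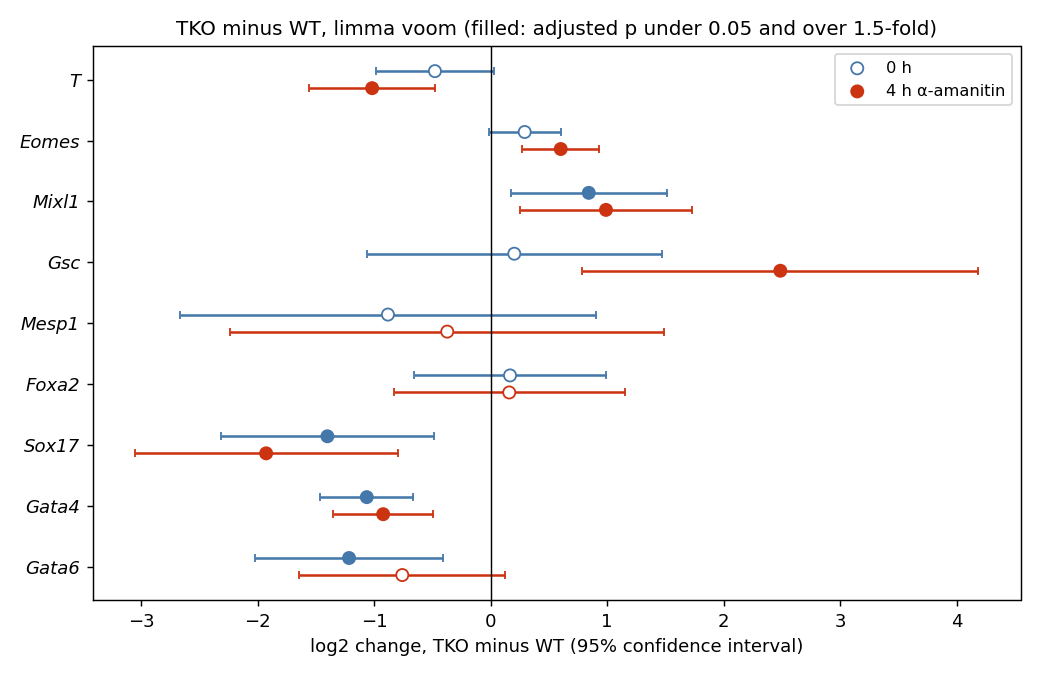
Voom log2 changes, TKO minus WT, of 9 members without and with 4 h of α-amanitin, with 95% confidence intervals. Filled points had an adjusted p under 0.05 and a change over 1.5-fold. Gata4, Sox17 and Mixl1 were called at both times, with the values -1.06 and -0.92, -1.40 and -1.93, and 0.84 and 0.99.

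Other genes of the streak, the endoderm and their inducing signals were followed from lists of 16, 18 and 18 genes. Of the other streak and mesoderm genes, 5 were tested at 0 h in the limma fit. Hand1, a lateral mesoderm and trophoblast factor, was higher in TKO cells (1.63, adjusted p = 7.87e-06), with 0.278 ± 0.0200 TPM in WT and 3.20 ± 0.151 TPM in TKO cells (SD, n = 2 each). Bmp4, the ligand that patterns ventral mesoderm, was lower (-1.96, adjusted p = 3.11e-07), with 40.4 ± 1.24 and 10.3 ± 1.14 TPM (SD, n = 2 each). Cdx1, a posterior homeobox gene, was lower too (-1.34, adjusted p = 0.000136). The median change of the 5 was -0.57, beside -0.02 over all genes tested, and at 4 h again 1 was called higher and 2 lower. By voom at 0 h, 14 of the 16 were tested, 2 were called higher and 3 lower, and the median turned to 0.07, beside 0.03 over all genes tested.

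Of the other endoderm genes, 9 were tested at 0 h, with 3 called higher and 1 lower and a median change of 0.06. By voom 15 were tested, with 4 called higher and 2 lower, and the median turned to -0.28. The basement membrane collagens Col4a1 (1.36, adjusted p = 2.25e-05) and Col4a2 (1.42, adjusted p = 6.12e-06) and the chemokine receptor Cxcr4 (0.68, adjusted p = 0.00148) were higher in TKO cells. The laminin Lama1, which like the collagens is abundant in primitive endoderm, was lower (-1.27, adjusted p = 3.51e-07). At 4 h, 2 were called higher and 1 lower. The transport protein gene Ttr was listed at 0 in WT libraries at 0 h and in TKO libraries at both times, and Afp in the WT ribodepleted libraries at both times.

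All 18 genes of Nodal and Wnt signalling were tested, and the 3 called at 0 h were higher in TKO cells, with a median change of 0.18. Of all genes tested 15.9% were called, so 3 of 18 is a share near the background, and by voom 4 of the 18 were called where 22.0% of all tested genes were. The ligand Wnt3 (1.10, adjusted p = 9.61e-05), the effector Smad3 (0.73, adjusted p = 3.42e-05) and the protease Furin, which processes Nodal (0.91, adjusted p = 6.69e-05), made up the 3. Wnt3 averaged 0.620 ± 0.0978 TPM in WT cells and 2.65 ± 0.0391 TPM without Tet enzymes (SD, n = 2 each). Nodal itself was at 0.20 (adjusted p = 0.0978). At 4 h, 5 of the 18 were called higher, the same 3 genes together with Lefty1 (0.68) and Tcf7l1 (0.72), the last 2 named after their values were seen.

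Markers of other states also differed between WT and TKO ribodepleted libraries. Of the 6 ESC markers, Zfp42, Esrrb and Klf4 were lower in TKO cells at 0 h (-2.08, -0.74 and -0.98), and the list summed to 2203 to 2241 TPM in WT and 1538 to 1551 TPM in TKO libraries. Of the 7 trophectoderm markers, 4 were tested and Krt7 and Hand1 were higher (3.31 and 1.63), and the sum was 63.3 to 64.7 TPM in WT and 102 to 105 TPM in TKO libraries at 0 h and 48.4 to 50.3 and 95.9 to 96.2 TPM at 4 h. Krt7 alone averaged 2.21 TPM in WT and 32.7 TPM in TKO cells at 0 h. Tfap2c (0.0172, limma adjusted p = 0.779) and Tead4 (0.0191, adjusted p = 0.861), tested too, were not called. They averaged 47.8 and 12.6 TPM in WT and 51.75 and 13.7 TPM in TKO cells. By voom all 7 were tested and 3 were called higher. None of the 7 was at 0 in all libraries of a group. Of the defining factors at 0 h, without and with the knockout, Cdx2 was at 0.738 ± 0.0398 and 1.15 ± 0.132 TPM, Gata3 at 0.218 ± 0.0879 and 1.02 ± 0.153 TPM, and Elf5 at 0.124 ± 0.0858 and 0.201 ± 0.0938 TPM (SD, n = 2 each). Of the 9 fibroblast markers, 5 were tested and Col1a2 was higher (1.18), and the sum was 10.7 to 10.96 TPM in WT, with Lum at 0, and 16.2 to 16.4 TPM in TKO libraries. By voom all 9 were tested, with 3 called higher and 1 lower. Postn, named after its values were seen, averaged 1.01 ± 0.324 TPM without and 0.292 ± 0.0411 TPM with the knockout (SD, n = 2 each). Of the 6 neural markers, 4 were tested, with Nes higher (0.77) and Olig2 lower (-4.19), and the sum was 38.9 to 41.4 and 35.8 to 38.1 TPM. Olig2 averaged 18.3 TPM in WT and 0.0429 TPM in TKO cells at 0 h but 0.0132 TPM in WT polyA libraries, so its low level was not particular to TKO. Zfp42 averaged 495, 124 and 169 TPM in these 3 groups. Esrrb (182, 116 and 244 TPM) and Klf4 (49.0, 26.1 and 80.9 TPM) were instead highest in WT polyA libraries. The part of these markers' cell types in the members' changes was not tested.

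Treatment with α-amanitin asks how levels shift when synthesis of new mRNA is blocked. TPM values are shares of a library, so a loss common to all transcripts cannot be seen. None of the members was called between 4 h and 0 h on either scale. In WT cells 2.10% of all tested genes were called on the log2(scaled TPM + 1) scale and 3.08% by voom, and in TKO cells 0.160% and 0.340%. At an unadjusted p under 0.05 there were 0 of 3 members in either genotype by limma on the log2(scaled TPM + 1) scale. Of all 12467 genes tested there, 6114 passed that limit in WT and 3113 in TKO cells. By voom there was 1 of 9 in WT, Gsc, and 0 of 9 in TKO, where 6613 and 3915 of all 16774 tested genes passed it.

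In WT cells, the voom changes from 0 h to 4 h were 0.28 for T (95% interval -0.18 to 0.74), -0.22 for Eomes (-0.56 to 0.13) and -0.17 for Gata4 (-0.51 to 0.18). Mixl1 was at -0.22, Sox17 at -0.22, Gata6 at -0.45 and Foxa2 at -0.47, each with an interval including 0. Gsc went from 6 and 5 reads at 0 h to 0 and 4 reads at 4 h, with a voom change of -1.89 (95% interval -3.65 to -0.13, adjusted p = 0.0988). It passed the limit without WT 4 h replicate 2 (-3.47, adjusted p = 0.0408) and was at -0.31 (adjusted p = 0.823) without WT 4 h replicate 1.

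In TKO cells, Eomes (0.09, 95% interval -0.20 to 0.38) and Gata4 (-0.03, 95% interval -0.50 to 0.45) had the narrowest intervals for a change by voom. T was at -0.26 (95% interval -0.85 to 0.32), Sox17 at -0.74 (-1.99 to 0.50) and Gata6 at 0.00184 (-0.96 to 0.97). Foxa2 was at -0.47 in both genotypes. Among the listed genes, Bmp4 (-0.70, adjusted p = 0.00216) and the Nodal antagonist Lefty1 (-0.94, adjusted p = 0.00232), named after its values were seen, fell in WT cells between 0 h and 4 h on the log2(scaled TPM + 1) scale. The pluripotency factor Sox2 (-0.59, adjusted p = 0.00412) and the neural factor Olig2 (-0.59, adjusted p = 0.00555), also named after their values were seen, were the other listed genes called there.

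The difference between the treatment changes of the 2 genotypes (the interaction) was not called for any member, and 0% of all tested genes were called by either fit, with 940 genes at an unadjusted p under 0.05 by limma and 1225 by voom. For T it was -0.32 ± 0.18 (SE) on the log2(scaled TPM + 1) scale (limma, adjusted p = 0.687), for Eomes 0.21 ± 0.16 (adjusted p = 0.706) and for Gata4 0.09 ± 0.15 (adjusted p = 0.856). At an unadjusted p under 0.05 there were 0 of 3 members by limma and 1 of 9 by voom, Gsc (2.29, unadjusted p = 0.0360 and adjusted p = 0.674). The contrasts at 0 h, at 4 h and over time share libraries, so their values for a member are not independent of each other.

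**Figure D3:**
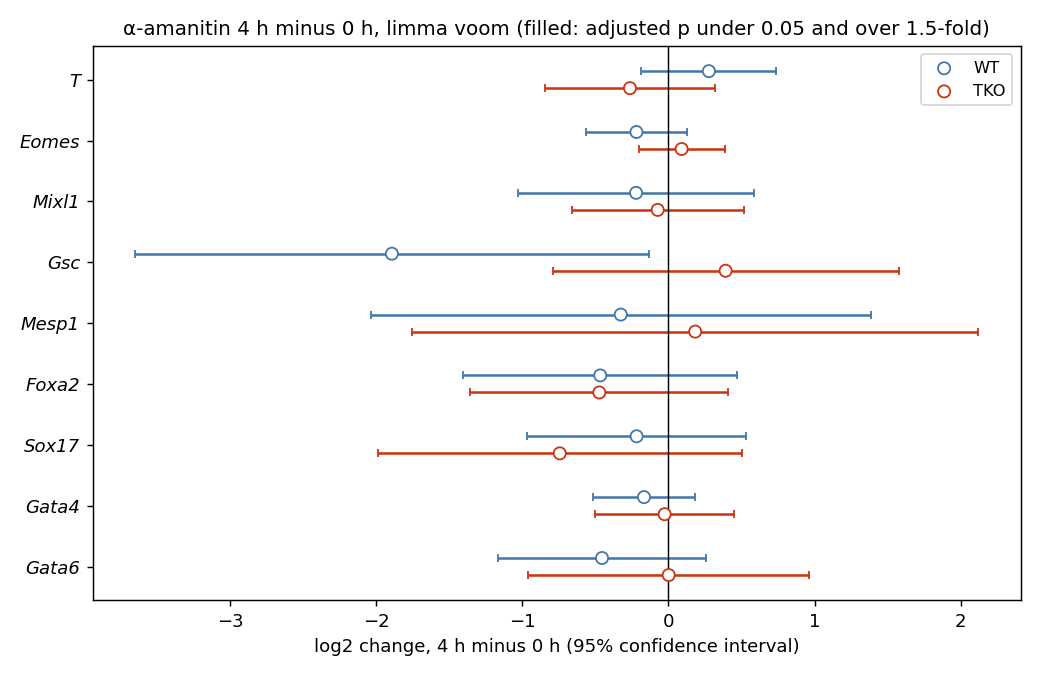
Voom log2 changes of 9 members from 0 h to 4 h of α-amanitin in WT and TKO ESCs, with 95% confidence intervals. No point is filled, since no member was called, and the intervals include 0 except that of Gsc in WT cells (-3.65 to -0.13).

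The WT polyA libraries showed the members at other relative levels than the WT ribodepleted libraries at 0 h. Eomes and Gata6 were higher in polyA RNA, and T, Foxa2, Gsc and Mixl1 were lower. By voom 6 of 9 members were called, where 40.6% of all 16741 tested genes were called. On the log2(scaled TPM + 1) scale Eomes and Gata6 were called, 2 of the 3 members tested (with Gata4), where 35.2% of all 12481 tested genes were called. RNA selection and read depth both differed between these groups. Markers of cell state differed too. Of the 4 neural markers tested on that scale, 1 was called higher in polyA and 3 lower. Sox1 averaged 13.8 TPM in polyA and 1.73 TPM in ribodepleted libraries, Pax6 1.245 and 2.53, Nes 4.23 and 17.6, and Olig2 0.0132 and 18.3. Of the 6 ESC markers, 2 were called higher and 1 lower. These differences cannot be told apart, and their part in the members' levels was not tested. Whether the cultures or sequencing runs differed is not given in the sources used here.

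T gave the largest of these differences, with 0.122, 0.175 and 0.189 TPM in the polyA libraries (9, 13 and 16 reads) against 1.502 and 1.86 TPM in the ribodepleted libraries (43 and 55 reads). Although the polyA libraries were sequenced more deeply, each held fewer T reads than either ribodepleted library, and the voom change was -3.45 (95% interval -4.11 to -2.79, adjusted p = 7.57e-09). Eomes showed the reverse. It was at 6.29, 6.49 and 6.03 TPM in polyA and at 2.25 and 2.16 TPM in ribodepleted libraries, a difference of 1.10 ± 0.0627 (SE) on the log2(scaled TPM + 1) scale (limma, adjusted p = 6.11e-07).

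Gata6 was at 1.81, 1.78 and 1.73 TPM in polyA and at 0.649 and 0.585 TPM in ribodepleted libraries (0.73 ± 0.0804, SE, limma adjusted p = 3.70e-05). The polyA values differed little from each other and were all above the ribodepleted values. Gata4 was at 1.49, 1.56 and 1.45 TPM in polyA and at 2.09 and 1.86 TPM in ribodepleted libraries, a difference of -0.32 ± 0.0776 (SE, limma adjusted p = 0.00493) that stayed under 1.5-fold. Gata6 exceeded Gata4 in each polyA library, and Gata4 exceeded Gata6 in each ribodepleted library of WT cells at 0 h.

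Of the remaining members, Mixl1 was at 0.303, 0.240 and 0.148 TPM in polyA libraries and lower than in ribodepleted RNA (voom change -1.46, 95% interval -2.22 to -0.69, adjusted p = 0.00159). Gsc was at 0.165, 0.0703 and 0.124 TPM, a voom change of -1.63 (95% interval -2.79 to -0.47, adjusted p = 0.0133) whose call was lost without ribodepleted replicate 1 (-1.52, adjusted p = 0.0865). Foxa2 was at 0.130, 0.142 and 0.114 TPM, a voom change of -1.74 (95% interval -2.59 to -0.88, adjusted p = 0.000831). Sox17, at 0.425, 0.668 and 0.278 TPM, overlapped the ribodepleted values (-0.46, 95% interval -1.21 to 0.28) and was called only without polyA replicate 2 (-0.76, adjusted p = 0.0447). Mesp1 had 7, 12 and 11 reads in polyA libraries (0.46, 95% interval -0.90 to 1.82), and Cer1 had none.

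**Figure D4:**
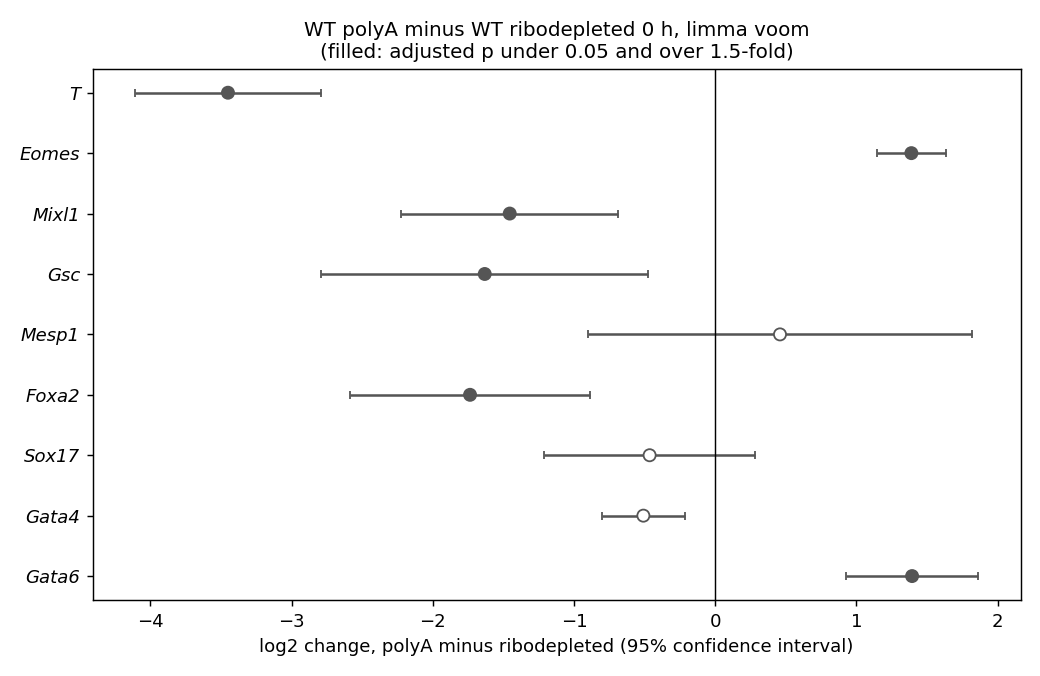
Voom log2 changes of 9 members, WT polyA minus WT ribodepleted libraries at 0 h, with 95% confidence intervals. T was lowest at -3.45, and Eomes and Gata6 were highest, each at 1.39.

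Over the 5 groups, mean T ran from WT at 4 h (1.84 ± 0.390 TPM) and WT at 0 h (1.68 ± 0.254) through TKO at 0 h (1.28 ± 0.0829) and TKO at 4 h (0.994 ± 0.0230) to WT polyA (0.162 ± 0.0354, SD, n = 3, and n = 2 elsewhere). The 2 WT ribodepleted groups overlapped. Mean Eomes ran from WT polyA (6.27 ± 0.229 TPM) through TKO at 4 h (2.90 ± 0.526) and 0 h (2.89 ± 0.378), which overlapped, to WT at 0 h (2.21 ± 0.0631) and 4 h (1.71 ± 0.203). Mean Gata4 ran from WT at 0 h (1.97 ± 0.162 TPM) through WT at 4 h (1.58 ± 0.202) and WT polyA (1.499 ± 0.0556), whose values overlapped, to TKO at 0 h (1.00 ± 0.0296) and 4 h (0.922 ± 0.0998), which overlapped too. Mean Gata6 was highest in WT polyA (1.78 ± 0.0400 TPM) and lowest in TKO at 4 h (0.259 ± 0.00600).

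The genes with the profile most like that of a member over the 8 ribodepleted libraries were found by the root mean square difference between mean-centred log2(scaled TPM + 1) values, among 12467 tested genes. For Eomes they were Tctn1, Wars2 and Srcin1, at differences of 0.0373 to 0.0624 where the SD of the Eomes profile was 0.184. For T they were Gm16517, Lrrc47 and Cdc25c, at 0.0826 to 0.0891 with a profile SD of 0.253. For Gata4 they were Pitpnc1, Tmem8 and Rybp, at 0.0392 to 0.0451 with a profile SD of 0.289. As a scale for these distances, 1269 tested genes lay closer than 0.0826 to a flat profile. At the smallest distances for Eomes and Gata4 there were 65 and 81 such genes. Whether these genes share regulation with the members was not tested.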

How the data were processed

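RNA-seq values were analysed from 11 mouse ESC libraries, grouped by their titles. The authors removed low-complexity, rRNA and tRNA reads (AfterQC, Bowtie2), trimmed adapters (Trimmomatic), aligned to mm9 with STAR and RefSeq genes, counted with HTSeq, and deposited TPM values, 1 file per library. Versions are not given in the sources used here.

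Reads were recovered from the TPM steps for 100% of the 19869 genes above 0 (tolerance 1e-05 read, up to a divisor common to a gene). Recovered totals were 25511992 to 29786112 (ribodepleted) and 72653715 to 82144990 (polyA). No replicate pair agreed within sampling noise (chi-square over degrees of freedom at least 1.53). Scaled TPM + 1 was log2-transformed and fitted with limma 3.58.1 (lmFit, eBayes with trend) in R 4.3.3 where the mean exceeded 1 scaled TPM, with 1 coefficient per group over the 8 ribodepleted libraries. The polyA comparison was fitted on 5 libraries. limma voom was run on genes with at least 10 reads. p-values are two-sided and Benjamini-Hochberg adjusted over all tested genes. Intervals on read ratios are exact (SciPy 1.17.1) and cover counting error only. The scripts were tested on simulated data.

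The members and gene lists were chosen with earlier results of these data known. Named genes were all 10 members, up to 3 called genes per direction with the largest change in TKO against WT at 0 h from each of 3 lists, the 3 nearest profiles of the 3 highest members, and the Tet genes. Alternatives were quantile normalisation or no scaling of the deposited TPM, a pseudocount of 0.1 or 5 TPM, a filter at 0.1 TPM or none, a replicate block, no variance trend, no fold limit, fits of only the groups compared, voom, and each library left out. The replicate block, total reads as library sizes and left-out libraries in voom were chosen after seeing the data. Gene coordinates are from GENCODE vM1 on NCBIM37 (mm9), and promoter windows from RefSeq on GRCm38.p6.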

Additional observations from a re-analysis of the deposited data

Results flagged for a closer look

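In T, Gsc and Mesp1, both 4 h libraries lay on 1 side of the mean scaled TPM at 0 h in WT cells and on the other side in TKO cells. This rule was applied to the members only, so the share of all genes that meet it is not known. The difference between the 2 genotypes was not called for any of them. For T the interaction was -0.32 on the log2(scaled TPM + 1) scale (limma, adjusted p = 0.687). For Gsc it was 2.29 on the voom log2 scale (adjusted p = 0.674) and rested on 11 reads over the WT libraries at 0 h and 4 at 4 h. For Mesp1 it was 0.51 (adjusted p = 0.928), with at most 5 reads in any ribodepleted group. Each TKO library held 1 Mesp1 read, so its TKO values differed between 0 h and 4 h only through depth and scaling.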

How the results depend on the processing

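All comparisons of these members are limited by depth, with at most 1011 reads of a member over the 8 ribodepleted libraries, and by 2 libraries per group. On the log2(scaled TPM + 1) scale, 1 member was called at 0 h and 1 at 4 h between TKO and WT. Without scaling, or with a pseudocount of 5 TPM, these counts were 0 and 0. With a pseudocount of 0.1 TPM, or with quantile normalisation, 2 were called at 4 h, and with no fold limit 3. Of all 12467 genes tested, 1707 were called higher and 882 lower with that pseudocount at 4 h, and 1047 and 871 with quantile normalisation. With no fold limit 3612 were called higher and 3790 lower at 4 h. With a filter and a pseudocount of 0.1 TPM together, 4 of 8 members were called at 0 h and 5 of 8 at 4 h. Between polyA and ribodepleted RNA 6 of 9 were called, and by voom the member counts were 4, 6 and 6 of 9. This combined setting passed 2265 increases and 1047 decreases among 15817 genes for TKO against WT at 0 h. The 4 h totals were 2483 and 1062. For polyA against ribodepleted RNA they were 3362 and 3121 among 15596 genes. With the filter at 0.1 TPM alone, 8 members were tested for TKO against WT, and 1 was called at 0 h and 1 at 4 h. Among the 15817 genes tested there, 1477 increases and 736 decreases passed at 0 h, and 1542 and 777 at 4 h. In the polyA comparison 2 members were called on the log2(scaled TPM + 1) scale, and 1 with a pseudocount of 5 TPM. The unscaled values moved the median over all genes from -0.01 to 0.14 for TKO against WT at 4 h, and from 0.03 to -0.11 for 4 h against 0 h in WT.

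With each library left out in turn, the lone library of its group was assumed to vary like the others. The count of called members then ranged from 0 to 1 at 0 h and from 0 to 2 at 4 h for TKO against WT on the log2(scaled TPM + 1) scale, with 0 reached without WT 0 h replicate 1 and without WT 4 h replicate 2. By voom it ranged from 2 to 3 at 0 h, and from 0 to 1 for 4 h against 0 h in WT. Directions turned for several values that were not called. For TKO against WT by voom, Gsc at 0 h ranged from -0.12 to 0.50, Foxa2 at 0 h from -0.00393 to 0.31 and Foxa2 at 4 h from -0.0217 to 0.33. For 4 h against 0 h in TKO on the log2(scaled TPM + 1) scale, Eomes ranged from -0.0326 to 0.18 and Gata4 from -0.0432 to 0.0201, with 0.0345 for Gata4 under quantile normalisation. For 4 h against 0 h by voom, Gata6 in TKO ranged from -0.64 to 0.71, Mixl1 in TKO from -0.36 to 0.25, Mixl1 in WT from -0.46 to 0.0322, Mesp1 in WT from -1.11 to 0.46 and Sox17 in TKO from -1.42 to 0.00124, and Eomes and Gata4 in TKO turned as well. In the interaction by voom, Mixl1, Mesp1, Foxa2, Sox17 and Gata6 turned. Mesp1 between polyA and ribodepleted RNA ranged from -0.33 to 1.24 by voom.

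Same-numbered libraries did not deviate together (correlations from -0.0443 to 0.118 between groups), so the numbers were not taken as pairs. With the replicate number as a block, 1 member was called at 0 h and 1 at 4 h for TKO against WT, 0 over time in either genotype or in the interaction, and 2 for polyA, and by voom 4, 6, 0, 0, 0 and 6, as without it. Of 140 recomputed counts, 120 stayed within 1.5 times. Many of the 140 came from the time and interaction comparisons, where the main count was 0 and nearly every recomputed count was 0 too. Most counts that moved were those of TKO against WT. Of 491 recomputed changes of single members 435 kept their direction and call, 36 lost it, 11 gained it and 9 turned. Over time and in the interaction these covered only T, Eomes, Gata4 and Gsc. Members of the limma fit were not recounted in voom fits with a library left out, so some turned values given above are not among the 9. The fit of only the groups compared was not run for the interaction or the polyA comparison, to which it does not apply.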
